A study of Mus musculus with 12 samples.

Results

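The nuclei described here are the adipocytes of iBAT, taken as the interscapular brown fat depot, that carried the most and the least messenger RNA of Ucp1, the uncoupling protein of brown fat, in 2 single-nucleus RNA-seq libraries. They were chosen by their own Ucp1 counts. Nuclei with at least 2000 unique molecular identifiers (UMIs, each standing for 1 captured RNA molecule) and at most 10% of UMIs from mitochondrially encoded genes were kept. A nucleus was called an adipocyte when the UMIs of Adipoq, Plin1, Plin4, Lipe, Cidec and Acsl1 summed to 3 or more and exceeded those of Flt1, Ptprb, Lama2, Dcn, Mrc1 and Ptprc, which mark endothelial, stromal and immune cells. Within each library the adipocyte nuclei were ranked by the share of their UMIs that came from Ucp1, and the top 25% (the high-Ucp1 group) was set against the bottom 25% (the low-Ucp1 group), with an upper middle and a lower middle group between them. This gave 2744 nuclei per group at room temperature and 2735 per group after cold, 10958 in all out of 21918 iBAT adipocyte nuclei in both libraries. The same rule found 46046 adipocyte nuclei among the 55952 nuclei that passed these limits in all 12 libraries, which together held 119035 barcodes.

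Both libraries came from iBAT of male C57BL/6J mice on normal chow, one housed at room temperature (22 °C) and the other kept at 4 °C for 3 days. The titles call the mice 6-month-old, whereas the age field of the same samples gives 16 weeks. Each condition is 1 library, and the labels do not say how many animals went into it, so no difference below has a replicate check and none is tested. Because Ucp1 chose the nuclei, every difference between the groups is a description of these 2 libraries. Intervals are exact 95% intervals that cover counting error only.

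Brown adipocytes burn fatty acids and glucose to make heat: noradrenaline released in the cold acts on beta-adrenergic receptors, cyclic AMP and protein kinase A rise, lipids are released from droplets, and fatty acids open the proton channel Ucp1 in the inner mitochondrial membrane. The same signal switches on Ucp1 transcription together with Ppargc1a, a coactivator of mitochondrial genes, and Dio2, the deiodinase that makes active thyroid hormone inside the cell. White adipocytes store fat, lack Ucp1 and express genes such as Lep, the satiety hormone leptin, and Retn, resistin.

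Ucp1 (GRCm38 chromosome 8, plus strand) measured 1168 counts per 1000000 UMIs (CPM, of the summed counts of a group) in the high group at room temperature, 434 in the upper middle, 108 in the lower middle, and 0 in the low group. None of the 2744 nuclei of that low group held a Ucp1 UMI, as the ranking required, so this 0 sets no limit on their level. After cold the same 4 groups measured 2393, 1678, 1224 and 592 CPM. The cold low group lay above the upper middle group at room temperature. At room temperature 41.6% of the adipocyte nuclei (4565) had 0 Ucp1 UMIs, and after cold 2.09% did (229 nuclei). The last nucleus inside the high group had a Ucp1 share of 659.2 CPM at room temperature and the first outside 658.9 CPM, and in the cold these were 1944.4 and 1944.3 CPM. The lower edge lay at 969 CPM on either side in the cold. At room temperature the nuclei on both sides of the lower edge had 0 Ucp1 UMIs and were separated by depth alone, 2722 UMIs inside and 2721 outside, so the low group there is the deeper part of the nuclei without Ucp1. Its median depth was 3706 UMIs, against 3089.5 in the high group. In the cold the medians were 6641 and 6298 UMIs.

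**Figure D1:**
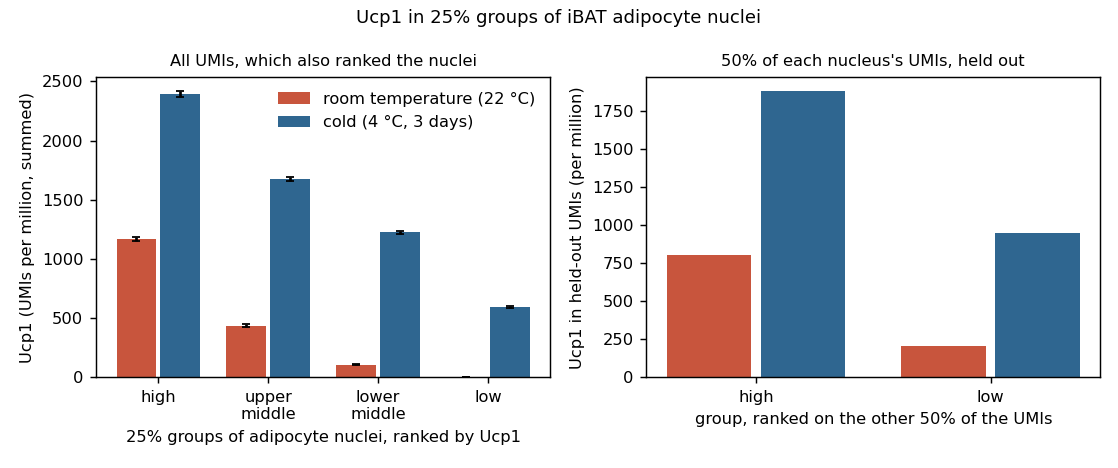
Ucp1 in UMIs per 1000000 in the 4 groups of iBAT adipocyte nuclei (left; error bars, exact 95% Poisson intervals) and, with nuclei ranked on a random 50% of their UMIs, in the other UMIs (right; no error bars). On the right the high and low groups stand at 800 and 204 CPM at room temperature and at 1876 and 949 CPM after cold.

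A ranking on few UMIs sorts counting noise along with real differences, so the UMIs of each nucleus were also split at random, 50% to rank the nuclei and the rest to measure Ucp1. In the measuring UMIs the high group held 800 CPM and the low group 204 CPM at room temperature, 3.93-fold apart (3.69 to 4.19). After cold the values were 1876 and 949 CPM, 1.98-fold apart (1.93 to 2.03). The spread of Ucp1 between nuclei was thus smaller in fold in the cold library, while the low group by this measure held 949 CPM there, more than the high group did at room temperature. Nuclei of other cell types also held Ucp1 UMIs. Whether these came from free RNA or from adipocyte nuclei captured with them was not tested. In nuclei with more endothelial, stromal and immune than adipocyte UMIs, thinned to 2000 UMIs, 8.52% (19 of 223; median 2655 UMIs before thinning) held a Ucp1 UMI at room temperature and 29.1% (225 of 772; median 3012 UMIs) after cold. Adipocyte nuclei thinned to the same depth held one in 45.5% and 89.9% of cases, and before thinning in 58.4% and 97.9% (median depths 3221.5 and 6801.5 UMIs). These other nuclei measured 57.7 CPM of Ucp1 at room temperature and 205 CPM after cold, both below what the measuring UMIs gave for the low groups. Those low groups were ranked on 50% of the UMIs and shared 68.2% and 73.6% of their nuclei with the low groups described elsewhere here.

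Adipoq, the fat cell hormone adiponectin, and the 5 other adipocyte genes of the rule helped to choose the nuclei and cannot check their label. Adipoq measured 111 CPM in the high and 135 in the low group at room temperature, and 39.1 and 42.6 CPM after cold. Pparg, the master regulator of fat cells and no part of the rule, measured 4794 and 4738 CPM in the high and low group at room temperature and 3415 and 3567 CPM after cold, against 829 and 1167 CPM in stromal nuclei of the 2 libraries. Mitochondrially encoded UMIs made up 0.688% and 0.671% of the high and low group at room temperature, and 0.28% and 0.269% after cold. Markers of other cells were not all even. Skeletal muscle genes (7 genes, Ttn, Neb, Myh4, Myh1, Ckm, Actn3 and Acta1) summed to 4.3 CPM in the high and 40.0 CPM in the low group at room temperature, and to 1.65 and 71.2 CPM after cold, with 2 of the 7 at 0 in either high group. Stromal progenitor markers (8 genes) summed to 115 and 176 CPM at room temperature and to 21.5 and 104 CPM after cold. Macrophage markers (8 genes) summed to 111 and 115 CPM, and to 70.2 and 119 CPM. Endothelial markers (8 genes) summed to 337 and 339 CPM, and to 172 and 192 CPM. In the stromal, macrophage and endothelial lists only 1 gene each, Bmper, Rbpj and Mecom, reached 20 CPM in either library. Flt1, an endothelial gene, measured 3.36 CPM in the cold high group. In the cold low group it measured 9.55 CPM in nuclei with Ucp1 UMIs and 8.93 CPM in those without. Flt1, Ptprb, Lama2, Dcn, Mrc1 and Ptprc in these lists were also used by the adipocyte rule. In the cold, mural cell markers (6 genes) summed to 11.8 and 40.7 CPM, those of T, NK and B cells (8 genes) to 1.65 and 7.07 CPM and those of dividing cells (4 genes) to 0.905 and 12.2 CPM; at room temperature these 3 lists summed to 23.6 and 30.2, 8.12 and 13.9, and 0.978 and 2.74 CPM. Their part in the differences below was not tested beyond the values given without such nuclei. Pairs of the 12 libraries shared between 3 and 76 cell barcodes, at most 0.734% of the smaller library.

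At room temperature 6226 genes other than Ucp1 had a mean of at least 20 CPM over the 2 groups. Of these, 83 were at least 1.5-fold higher in the high group (1.33% of the genes compared) and 231 were at least 1.5-fold lower (3.71%), on the scale log2((high + 1)/(low + 1)) in CPM. After cold 3 of 6200 genes were higher (0.0484%) and 88 were lower (1.42%). High and low Ucp1 nuclei therefore differed at fewer genes in the cold library, and in both libraries more genes passed this fold downward than upward. The limit of 20 CPM is on the mean of both groups. Genes such as Cyp2e1 (0.852 against 42.3 CPM after cold) thus entered through the low group alone. Among the 5647 genes compared in both, 40 were lower in both libraries, which is 32.5% of the 123 lower at room temperature and 53.3% of the 75 lower after cold. Of the 79 higher at room temperature and the 2 higher after cold, 2 were shared. After cold 65 of the 79 were above 0, against 50.7% of the 6200 genes compared there. Set against the 229 cold nuclei with 0 Ucp1 UMIs in place of the low group, the cold high group had 672 genes higher and 1014 lower of 6534 compared. These 229 nuclei, of a median of 5331 UMIs, carry a larger counting error than the 2735 of the low group. Of them 87 were rich in white-adipocyte UMIs, as described below, so these counts are not like those above.

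**Figure D2:**
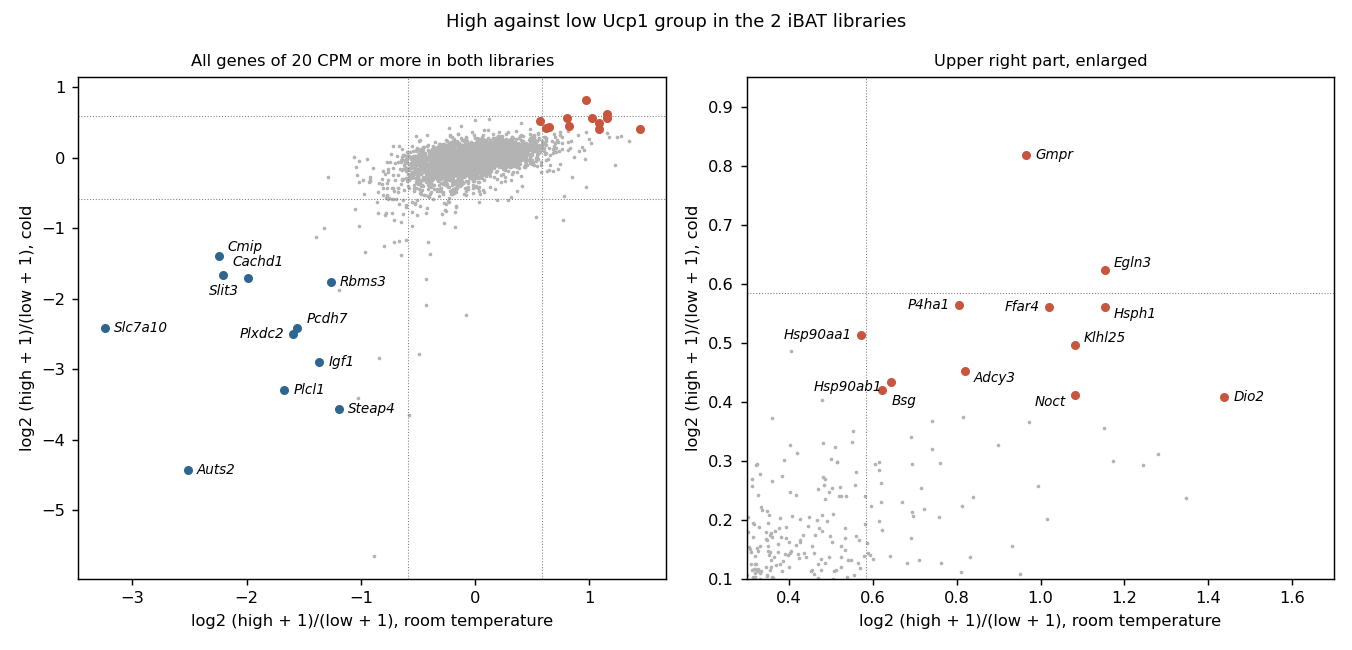
Each grey point is 1 of 5647 genes of at least 20 CPM in both iBAT libraries, by its log2 ratio of the high to the low Ucp1 group at room temperature (x) and after cold (y); red and blue mark the 12 genes named for ratios above 0 in both libraries and 11 of the 12 named for ratios below 0, dotted lines mark 1.5-fold, and the right panel enlarges the upper right. The blue genes reach -4.43 (Auts2, cold), whereas no red gene exceeds 1.44 (Dio2, room temperature).

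Gmpr, guanosine monophosphate reductase of purine salvage (chromosome 13, 45507444 to 45553800, overlapping Atxn1 on the other strand), led the 12 genes named for the largest log2 ratios above 0 in both libraries, of which all but Hsp90aa1 were past 1.5-fold at room temperature and 2 were after cold. It measured 171, 121, 103 and 86.8 CPM in the high, upper middle, lower middle and low groups at room temperature and 1121, 1030.3, 914 and 635 CPM after cold, a log2 ratio of 0.97 (0.86 to 1.09) and 0.82 (0.79 to 0.85). The level of Gmpr was thus ordered like Ucp1 over all 4 groups in both libraries, as it was for all 12 genes at room temperature and for 11 of 12 after cold. The 12 were chosen by the ratio of the outer groups, and the share of all genes ordered so was not counted. At room temperature only 924 of 2745 lower middle nuclei held a Ucp1 UMI, and the others differed from the low group by depth alone in the ranking. Egln3, a prolyl hydroxylase that marks hypoxia-inducible factors for decay, measured 38.9 against 16.9 CPM at room temperature and 30.7 against 19.6 CPM after cold. Gmpr and Egln3 were the 2 genes past 1.5-fold in both libraries. Egln3 was not past it after cold (0.54) without the low-group nuclei rich in white-adipocyte UMIs that are described below.

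The list of adrenergic and cyclic AMP signalling genes as a whole lay near 0. At room temperature 2 of 20 were higher and 1, Adcy5, was lower, with a median log2 ratio of 0.11, against 1.33% higher, 3.71% lower and a median of -0.04 over all genes, and after cold none of 21 passed the fold, with a median of 0.08. The genes of this paragraph were chosen as single genes, most of them outside that list. Dio2 (chromosome 12, 90724552 to 90738438, minus strand) measured 98.6, 75.0, 49.5 and 35.7 CPM from the high to the low group at room temperature, a log2 ratio of 1.44 (1.30 to 1.63). After cold it measured 236, 237, 226 and 177 CPM, with only the low group apart (0.41; 0.35 to 0.47). Adcy3, an adenylyl cyclase that makes cyclic AMP, measured 464 against 263 CPM at room temperature and 913 against 667 CPM after cold. Noct, nocturnin, a rhythmic phosphatase of NADP(H), measured 465 against 219 CPM and 779 against 585 CPM. Among the 4 highest other genes at room temperature were 3 that are known to be induced fast by cyclic AMP. Nr4a1, an orphan nuclear receptor, measured 119.7, 89.2, 67.6 and 48.8 CPM over the 4 groups (1.28; 1.15 to 1.44), Nr4a3, its relative, 30.4, 25.1, 18.2 and 11.7 CPM (1.30), and Sik1, a salt-inducible kinase, 65.9, 43.7, 36.1 and 26.6 CPM (1.28). After cold Nr4a1 stood at 19.5 and 14.7 CPM (0.39; 0.18 to 0.63) and Nr4a3 at 1.49 and 2.54 CPM in the high and low groups, below every room-temperature group. Sik1 measured 74.1 and 59.6 CPM after cold (0.31; 0.20 to 0.43). Dhrs9, a retinol and steroid dehydrogenase, was ordered the same way at room temperature (54.8, 37.0, 28.9 and 20.9 CPM; 1.35), and measured 210.2 against 178 CPM after cold.

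Of the 12 genes, 3 encode chaperones, a grouping made after their values were seen. In the list of 15 immediate early and heat shock genes, 3 of the 4 compared at room temperature were higher, Nr4a1, Nr4a3 and Hsph1, and none of 2 after cold, where 1.33% and 0.0484% of all genes were. Hsph1, a heat shock protein of the Hsp110 family, measured 43.0, 35.2, 27.1 and 18.8 CPM over the 4 groups at room temperature (1.15; 0.96 to 1.44) and 189, 165, 156 and 128 CPM after cold (0.56; 0.49 to 0.64). Hsp90aa1 and Hsp90ab1, the cytosolic chaperones of the Hsp90 family, had log2 ratios of 0.57 and 0.65 at room temperature and of 0.51 and 0.43 after cold. Hspb1, a small heat shock protein, was among the 4 highest other genes after cold, at 31.2 against 20.9 CPM (0.55), and measured 6.16 against 5.12 CPM at room temperature. The others of these 12 were P4ha1, a subunit of the collagen prolyl hydroxylase (0.81 and 0.56), Ffar4, a receptor for long-chain fatty acids (1.02 and 0.56), Klhl25, an adaptor of a ubiquitin ligase (1.08 and 0.50), and Bsg, basigin, a partner of lactate transporters (0.62 and 0.42). The 4 highest other genes after cold also held Slc25a34, a mitochondrial carrier (0.63), and Fam222a (0.53), which were under 20 CPM at room temperature, with log2 ratios of 0.58 and -0.14. Slc25a34 was not past 1.5-fold after cold (0.55) without the low-group nuclei rich in white-adipocyte UMIs.

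Promoters of these genes are shown because cyclic AMP acts through factors that bind TGACG or the full palindrome TGACGTCA, and heat shock factor binds pairs of GAA units such as GAANNTTC or TTCNNGAA. The 250 bases before the RefSeq start (GRCm38.p6) were searched on both strands, and each line gives 30 bases, 5′ to 3′ on the gene's strand, with matches in capitals. TGACG or its complement CGTCA occurs in 17.8% of the 32851 promoters in the table, TGACGTCA, which contains both, in 1.55%, and GAANNTTC or TTCNNGAA in 12.8%.
Dio2, chr12:90739116-90739145, minus: cctctttctcaaTGACGTCAagatctttag
Nr4a1, chr15:101266794-101266823, plus: cccctctccatgCGTCAcggagcgcttaag
Nr4a3, chr4:48045086-48045115, plus: ccatgtCGTCAcatTGACGtctcgcattcc
Ucp1, chr8:83290189-83290218, plus: gggctttgggagTGACGcgcggctgggagg
Hsph1, chr5:149636352-149636381, minus: tgggtagaatctTTCTCGAAggctcgagaa
Hspb1, chr5:135887801-135887830, plus: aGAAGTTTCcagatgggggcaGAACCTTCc
Nr4a1 and Nr4a3 each held 4 matches to TGACG or CGTCA in their 250 bases, and Dio2 held the palindrome. Of the 20 named higher genes 15 were in the table, and 7 of the 15 held TGACG, namely Egln3, Klhl25, Dio2, Dhrs9, Nr4a3, Nr4a1 and Hspb1. Sik1, Adcy3 and Noct were not among the 7. A gene was counted when any of its promoters held the motif, whereas the 17.8% is a share of promoters, so these are unlike measures. Of the 20 named lower genes 15 were in the table and 1, Alcam, held it. The heat shock pair was found in 2 of 15 on either side. A match of letters describes the sequence and does not show a bound site.

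**Figure D3:**
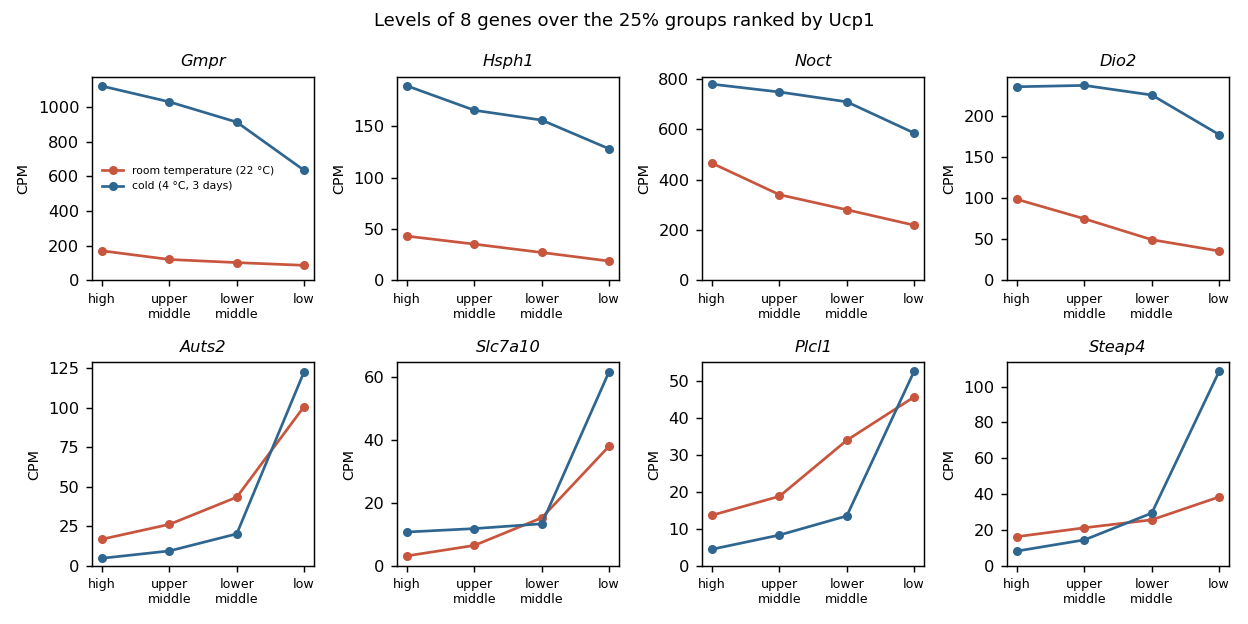
Summed level in CPM of 8 genes (panels) in the high, upper middle, lower middle and low Ucp1 groups, at room temperature (red) and after cold (blue), 1 library each. In the upper row the blue points stand above all red points; in the lower row the cold low group stands far above the other cold groups, as for Steap4 at 108 against 29.4 CPM in the lower middle group.

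The thermogenic list was higher with Ucp1 as a whole at room temperature. Of its 24 genes 23 were counted with Ucp1, which ranked the nuclei, left out, and 19 of these were compared. Of the 19, 7 were at least 1.5-fold higher, none was lower, 18 were above 0, and the median log2 ratio was 0.37. Over all genes 1.33% were higher, 3.71% lower and the median was -0.04. In the same comparison cytosolic ribosomal protein genes had a median of 0.48 and RNAs retained in the nucleus one of -0.28, and their part in this difference was not tested. Dio2 was highest, and Acot11, an acyl-CoA thioesterase, lowest at -0.01. Gk, the kinase that recycles glycerol, measured 970.3, 717, 508 and 409 CPM from high to low, Ppargc1a 1462, 1211, 961 and 784 CPM, and Cidea, a lipid droplet protein of brown fat, 1530.4, 1281, 1079.7 and 927 CPM. These genes stepped down with Ucp1 across all 4 groups. Prdm16, a transcription factor that sets brown identity, was nearly level at 1249.7, 1266, 1227 and 1211 CPM, and Ebf2, another, measured 2237, 2154, 1991 and 1925 CPM (0.22). After cold none of 21 thermogenic genes was past 1.5-fold, all 21 were above 0, and the median was 0.15 against 0.0024 over all genes. Elovl3, a fatty acid elongase induced by cold, was highest there at 0.44 (225, 219, 205 and 165 CPM).

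Oxidative genes differed in small steps. None of 34 nuclear-encoded subunits of the respiratory chain and ATP synthase was past 1.5-fold in either library, while 27 of 34 were above 0 at room temperature (median 0.12) and 34 of 34 after cold (median 0.12). Over all genes 42.0% and 50.7% were above 0. Of 18 fatty acid oxidation genes 2 were higher, against 1.33% of all genes, and 15 above 0 at room temperature (median 0.28), led by Ehhadh, a peroxisomal enzyme, at 0.87. After cold 17 of 19 were above 0, with a median of 0.09 and none past the fold. Glycolytic genes had medians of 0.14 and 0.15, with 11 of 15 and 15 of 16 above 0, and 1, Pfkp, a phosphofructokinase, was past the fold at room temperature (0.61; 0.54 without the low group's nuclei rich in white-adipocyte UMIs). The 13 mitochondrially encoded genes had a median of 0.04 at room temperature, and the 10 compared after cold one of 0.06. At room temperature the sign of several of these medians rested on the order of tied nuclei: with the shallower nuclei of 0 Ucp1 UMIs as the low group, the respiratory chain stood at -0.02, glycolysis at -0.01 and the mitochondrially encoded genes at -0.39, and the thermogenic list at 0.30. The beta-adrenergic receptors were nearly level between the groups: Adrb3 measured 292 and 258 CPM in the high and low group at room temperature and 348 and 369 CPM after cold, and Adrb1 85.9 and 89.3, then 103 and 120.4 CPM.

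**Figure D4:**
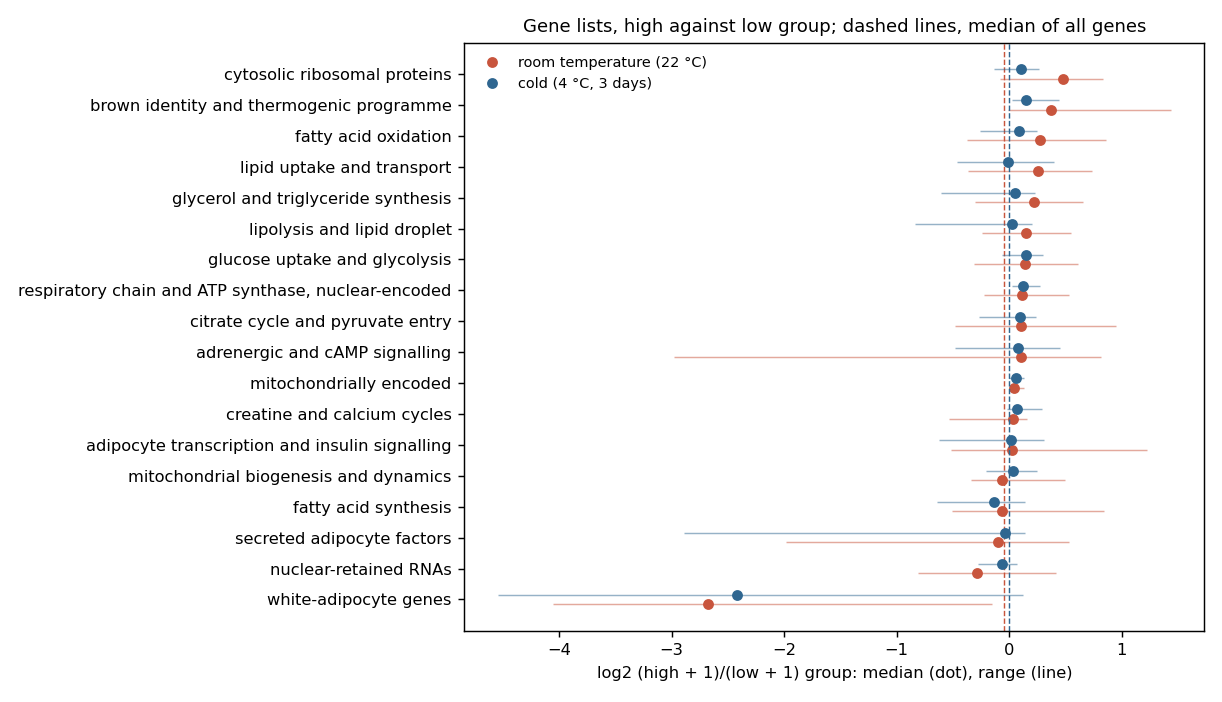
Median log2 ratio of the high to the low Ucp1 group (dots) and its range over members (lines) for each gene list with at least 3 members compared in both libraries; red, room temperature; blue, cold; dashed lines, median of all genes. The thermogenic list lies at 0.37 and 0.15 and the white-adipocyte list, with only 4 and 3 members compared, at -2.68 and -2.42.

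Of the fatty acid synthesis genes 4 of 14 were above 0 in either library, with medians of -0.07 at room temperature and -0.13 after cold. For the counts of called genes in this paragraph, 1.33% of all genes were higher and 3.71% lower at room temperature, and 0.0484% higher and 1.42% lower after cold. In the cold library 2 of the 14 were lower with high Ucp1, Slc25a1, the mitochondrial citrate carrier (-0.64), and Me1, malic enzyme (-0.63). Neither was past the fold without the low group's nuclei rich in white-adipocyte UMIs, at -0.30 and -0.44. Me1 measured 793, 820.4, 885 and 1228 CPM from the high to the low group, a step confined mainly to the low group. At room temperature 2 of 14 were higher, led by Elovl5, a fatty acid elongase, at 0.84. Elovl6, another elongase, was the other, at 1967, 1629, 1290.1 and 1179.8 CPM. Of the lipolysis and lipid droplet genes, 14 of which were compared, none passed the fold at room temperature and Abhd5, the activator of the lipase Pnpla2, was lower after cold (-0.84; 114, 121, 137 and 205 CPM). Pnpla2 itself measured 176 and 185 CPM. In the insulin signalling list, Irs2, an insulin receptor substrate, was the 1 gene of 15 higher at room temperature (1.23) and Pik3r1, a subunit of phosphatidylinositol 3-kinase, the 1 gene of 14 lower after cold (-0.62; -0.40 without those nuclei).

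The 12 genes named as lower with Ucp1 in both libraries had log2 ratios from -3.24 to -1.19 at room temperature and from -4.43 to -1.39 after cold, and several reached the level limit through the low group alone. Auts2, a nuclear protein that acts with Polycomb complexes (chromosome 5, 131437333 to 132543344, overlapping several predicted genes), measured 16.8, 26.2, 43.4 and 101 CPM from the high to the low group at room temperature and 4.74, 9.38, 20.2 and 123 CPM after cold, log2 ratios of -2.51 and -4.43. Slc7a10, a neutral amino acid transporter of white adipocytes (chromosome 7, 35186385 to 35201114, overlapping Lrp3 on the other strand), measured 3.13, 6.46, 15.2 and 38.0 CPM and 10.7, 11.8, 13.3 and 61.6 CPM (-3.24 and -2.42). In the cold the first 3 groups were alike and the low group stood apart. Plcl1, a catalytically inactive phospholipase C relative, had log2 ratios of -1.67 and -3.29, Steap4, a metalloreductase, -1.19 and -3.57, and Igf1, insulin-like growth factor 1, -1.37 and -2.89. Also among the 12 were Slit3, a secreted guidance protein, Cachd1, a calcium channel modulator, Plxdc2, Pcdh7, a protocadherin, Cmip and Rbms3, an RNA-binding protein, with log2 ratios from -2.24 (Cmip) to -1.26 (Rbms3) at room temperature, and from -2.50 (Plxdc2) to -1.39 (Cmip) after cold. All 12 were ordered against Ucp1 over the 4 groups at room temperature and 10 of 12 after cold, the exceptions being Cachd1 and Pcdh7. These 12 too were chosen by the ratio of the outer groups, and the share of all genes ordered so was not counted. With the shallower nuclei of 0 Ucp1 UMIs as the room-temperature low group, Auts2 stood at -1.20, Slc7a10 at -1.95 and Igf1 at -0.76.

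Beyond those 12, the 4 lowest genes of each library were named among the genes that reached 20 CPM there. At room temperature these were Nnat, neuronatin, an imprinted gene (8.61, 13.9, 63.9 and 158 CPM; -4.05), Prr16 (-3.62), Adcy5, an adenylyl cyclase (-2.98), and Atp2b4, a plasma membrane calcium pump (-2.27). Nnat lies inside Blcap, which is on the other strand and measured 96.0 and 135 CPM. In the cold they were Car3, carbonic anhydrase 3 (4.58, 6.36, 9.55 and 279 CPM; -5.65), Cyp2e1, a cytochrome P450 of white fat (0.852, 1.81, 2.04 and 42.3 CPM; -4.55), Alcam, an adhesion molecule (-3.92), and Ttn, titin of muscle (0.426, 0.929, 0.770 and 46.7 CPM; -5.06). Most were low in the other library too, some of them below 20 CPM there: Prr16 stood at -3.92, Adcy5 at -2.63, Atp2b4 at -2.57 and Nnat at -1.46 after cold, and Cyp2e1 at -3.29, Alcam at -3.07 and Ttn at -3.44 at room temperature. Car3 at room temperature (-0.89) was high in every group, at 590.1, 713, 902 and 1094 CPM, whereas in the cold library only the low group stood above 10 CPM. Ttn rested on few nuclei: without the 11 cold low-group nuclei that held 3 or more UMIs of the 7 muscle genes its log2 ratio was 0.0799, and the other named genes kept their direction. Of 13 white-adipocyte genes only 4 reached 20 CPM at room temperature, of which 3 were lower and 0 above 0. In the cold 3 did, of which 2 were lower and 1, Npr3, was above 0 (0.12). Over all genes 3.71% and 1.42% were lower. The medians of the list were -2.68 and -2.42, the cold one being the value of Slc7a10. These low levels pass the limit through the low group, so the medians are not support.

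The low group held a small set of nuclei with many UMIs of white-adipocyte genes. Counting 8 genes (Cyp2e1, Aldh1a1, Slc7a10, Lep, Nnat, Mest, Sncg and Retn), 161 of 2744 low-group nuclei of the room-temperature library (5.87%) and 190 of 2735 after cold (6.95%) had 3 or more, against 10 nuclei in either high group (0.364% and 0.366%). This limit of 3 was chosen after the values were seen; 12 and 26 of those nuclei lay exactly at 3 UMIs, 81 and 56 low-group nuclei just under it at 2, and 106 and 99 had 10 or more. After thinning to 2000 UMIs the shares were 4.66% and 3.73% in the low groups and 0.109% and 0.0366% in the high groups. Such nuclei were not confined to the low groups. Before thinning, the upper and lower middle groups held 24 (0.874%) and 82 (2.99%) at room temperature, and 19 (0.695%) and 24 (0.878%) after cold. Thinned, their shares were 0.219% and 2.22% at room temperature, and 0.0366% and 0.11% after cold. Before thinning, the nuclei with 3 or more held 84.8% and 87.2% of all UMIs of these 8 genes in the low groups. They were chosen by these same UMIs, so this share is no separate result. Endothelial nuclei thinned alike held none with 3 or more (0 of 44 and 0 of 217, allowing up to 6.82% and 1.38%), whereas 15.7% of 159 and 25.6% of 375 stromal nuclei did, with Aldh1a1 alone at 465 and 733 of the 520.1 and 823 CPM of the 8 genes. Of genes that neither rule used, Pdgfra, a receptor of stromal progenitors, measured 4.41 and 16.7 CPM in the white-gene nuclei against 329.8 and 616 CPM in stromal nuclei, and Pparg 3946 and 3730 against 829 and 1167 CPM. Pdgfra measured 2.88 and 3.21 CPM in the rest of the low groups and 1.56 and 0.213 CPM in the high groups. The endothelial, stromal and immune genes of the adipocyte rule held 0.335 and 1.12 UMIs per white-gene nucleus. They held 0.213 and 0.324 in the rest of the low groups, and 0.135 and 0.105 in the high groups. The part of RNA from other cells in this set was not tested. Taking out the highest doublet scores removed 8.56% and 10.3% of the low groups, and 10 of these 161 (6.21%) and 31 of these 190 nuclei (16.3%). The white-gene nuclei were deeper, with medians of 4740 and 8225.5 UMIs against 3647 and 6589 in the rest of the low groups. Ttn, a muscle gene, measured 125 and 149 CPM in them against 18.4 and 37.0 CPM in that rest. Whether some were mixed nuclei was not tested further.

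**Figure D5:**
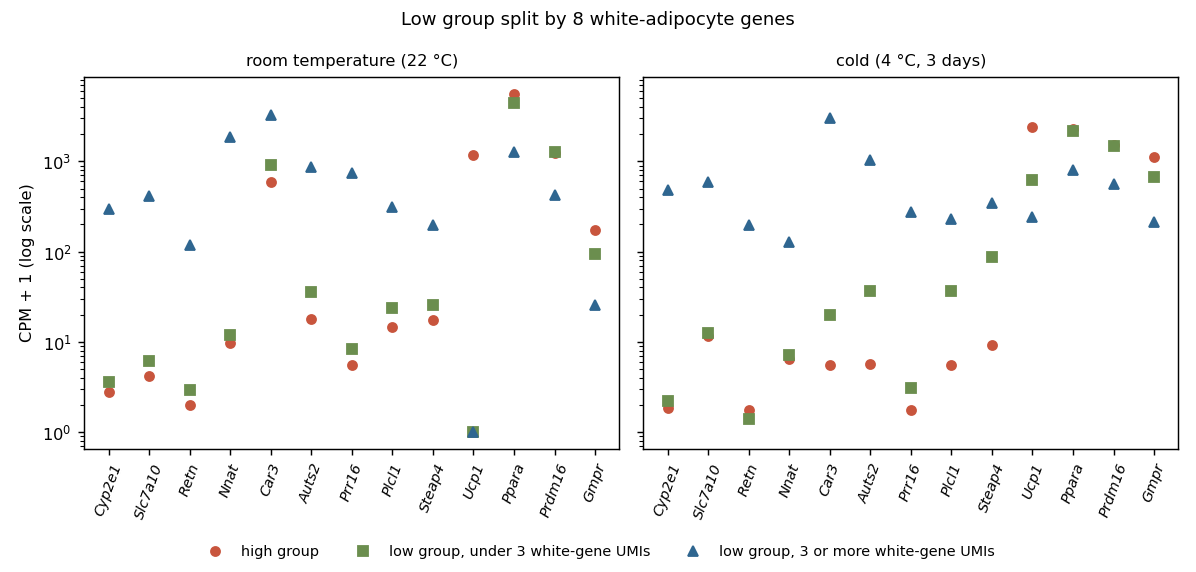
Level (CPM + 1, log scale) of 13 genes in the high group (circles), in low-group nuclei with under 3 UMIs of 8 white-adipocyte genes (squares) and in low-group nuclei with 3 or more (triangles), at room temperature (left) and after cold (right). The triangles lie above the other points for Car3, Auts2 and Prr16 and below them for Ppara, Prdm16 and Gmpr. Cyp2e1, Slc7a10, Retn and Nnat helped to define the set, and Ucp1 chose the low group. Car3, Auts2, Prr16 and Gmpr had been named for their ratios between the high and low groups.

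Genes outside those 8 also differed in the same nuclei. Ppara, a fatty acid receptor that drives oxidation, measured 1279 CPM in them at room temperature and 812 CPM after cold, against 4416 and 2185 CPM in the rest. Prdm16 measured 418 and 562 CPM in them against 1280 and 1472 CPM. Auts2 measured 862 and 1047 CPM, against 34.6 and 35.2 CPM. Car3 measured 3030 CPM in the cold set and 18.8 CPM in the rest of the cold low group. Auts2 and Car3 had been named for their high levels in the low groups. The white-gene nuclei held 73.8% and 93.9% of the cold low-group UMIs of Auts2 and Car3, so neither gene is separate support. In the cold, 87 of the 229 nuclei with 0 Ucp1 UMIs (38.0%) were such white-gene nuclei, against 103 of the other 2506 nuclei of the low group (4.11%). The 229 had a median of 5331 UMIs and a level of 1061 CPM for Ppara and 2345 CPM for Car3.

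With those nuclei and the 10 such nuclei of each high group left out, 79 genes were higher and 158 lower at room temperature, and 1 was higher and 34 lower after cold. Of the named genes past 1.5-fold, 24 of 31 remained so at room temperature and 14 of 19 after cold. With the white-gene nuclei left out of the low group alone, Auts2 stood at -0.9997 at room temperature and -2.66 after cold, Plcl1 at -0.70 and -2.76, Plxdc2 at -0.74 and -2.03, Steap4 at -0.57 and -3.24, Rbms3 at -0.40 and -1.31, and Igf1 at -0.29 and -0.97. At room temperature these log2 ratios were smaller in size than those of Dio2 or Hsph1. Slc7a10 stood at -0.58 at room temperature and -0.08 after cold, Nnat at -0.31 at room temperature and Cyp2e1 at -0.25 after cold. These genes had helped to choose the nuclei left out. Cachd1 stood at -0.56 and -0.61, Pcdh7 at -0.38 and -1.10, and Prr16 at -0.61 at room temperature. In the cold Steap4 measured 86.0 CPM in the remaining low-group nuclei and 8.20 CPM in the high group. Of the higher genes, Gmpr stood at 0.88 and 0.73, Hsph1 at 1.14 and 0.52, and Dio2 at 1.35 and 0.31.

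Between conditions, levels in a group were set side by side, with 1 library each. Of the 12 genes named for ratios above 0 in both libraries, 10 measured more in the cold low group than in the room-temperature high group. Gmpr stood at 635 CPM in the former and 171 CPM in the latter, and Hsph1 at 128 and 43.0 CPM. The exceptions were Egln3 (19.6 and 38.9 CPM) and Klhl25 (22.9 and 41.1 CPM). Among all 5647 genes compared in both, 2850 did so. Of the thermogenic genes 11 of 19 did, of the fatty acid synthesis genes 12 of 14, of glycolytic genes 14 of 15 and of respiratory chain genes 34 of 34. Mitochondrially encoded genes went the other way: 0 of 10 did, with a median log2 ratio of cold over room temperature of -1.22 in the high group and -1.29 in the low group. With 1 library each, cold and the preparation of each library cannot be told apart here. For the 12 lower genes, the median log2 ratio of cold to room temperature was -1.40 in the high group and -0.33 in the low group, where 6 of the 12 were lower in the cold.

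The same split was made in 4 libraries that had no part in choosing the genes. The first were iBAT of mice titled 1 and 2 months old (4 and 8 weeks in the age field), both at 22 °C. The others were from the adipose depot labelled mPRAT, at room temperature (22 °C) and after 3 days at 4 °C. The mPRAT mice were titled 6 months old (16 weeks in the age field). In that order the 4 libraries held 525, 862, 1003 and 516 nuclei per group. Ucp1 in the 50% of UMIs not used for ranking differed 4.47-fold (3.68 to 5.45), 6.67-fold (5.89 to 7.56), 54.5-fold (43.9 to 68.6) and 36.8-fold (29.5 to 46.7) between their groups. In the iBAT library titled 1 month 265 genes were higher (4.22%) and 497 lower (7.91%), and in that titled 2 months 737 were higher (11.8%) and 927 lower (14.8%). In mPRAT 998 were higher (15.5%) and 990 lower (15.4%) at room temperature, and 1349 were higher (20.5%) and 1334 lower (20.2%) after cold. All 12 genes named as lower in both iBAT libraries were past 1.5-fold lower in all 4. Auts2, for example, had log2 ratios of -2.33, -3.15, -4.02 and -3.47, and Igf1 of -3.27, -3.51, -2.68 and -5.07. The 12 genes named for ratios above 0 in both were above 0 in the 2-month iBAT library and both mPRAT libraries. Of the 11, 11 and 10 with a mean of at least 20 CPM there, 9, 7 and 10 were past the fold. Egln3, under that limit in cold mPRAT, stood at 1.10 there. Gmpr stood at 1.38, 3.00 and 5.80 and Dio2 at 2.04, 3.22 and 3.20. In the 1-month iBAT library none of the 12 was past the fold and 4 lay below 0, P4ha1, Hsph1, Ffar4 and Hsp90aa1. Outside these 12, Nr4a1 stood at 0.02 (12.8 and 12.6 CPM) in the 1-month iBAT library and was past the fold the other way in the 2-month one, at -0.88 (24.4 and 45.6 CPM), while in mPRAT it stood at 3.02 and 3.19. White-gene nuclei made up 26.9%, 43.0%, 88.7% and 86.4% of the low groups of these 4 libraries, in the order given, and 2.67%, 1.16%, 19.4% and 2.33% of the high groups. After thinning to 2000 UMIs the shares were 21.9%, 35.4%, 64.5% and 65.5% in the low groups and 1.52%, 0.58%, 4.99% and 0.581% in the high groups. The 7 muscle genes summed to 157 CPM in the high and 2672 in the low group of the 1-month library and to 324 and 9573 CPM in the 2-month library. The part of either in these differences was not tested. The groups of these libraries differed in depth, in mPRAT at room temperature by a median of 5650 UMIs in the high and 10721 in the low group.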

How the data were processed

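Nuclei of adipose depots were sorted and run on the 10x Chromium 3′ system, per the labels' protocols. The authors counted UMIs with Cell Ranger 7.0.0 on mm10, per the submitters' processing notes and the file headers, and the deposited matrices hold whole-number counts per gene and barcode, not normalized. The smallest barcode held 500 UMIs. The counting of introns and of strand is not given in the sources used here, so overlapping genes, and ribosomal protein genes with near-identical pseudogenes, are uncertain.

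Counts were summed over the nuclei of each group and scaled to CPM. Tied Ucp1 shares were ordered with the lower total first, from the top down. Genes with a mean of 20 CPM or more and a log2((high + 1)/(low + 1)) past 1.5-fold were counted. Ratio intervals are exact conditional binomial intervals without the pseudocount. Scripts used Python 3.11.15, NumPy 2.4.6, SciPy 1.17.1 and scanpy 1.11.5, and were tested on simulated counts for both iBAT comparisons. Total UMIs were 10226099 and 11330101 in the high and low groups at room temperature, and 18776063 and 20093826 after cold. Doublets were not removed in the values reported. Gene positions are from GENCODE M21 (GRCm38), which matched 32235 of 32285 gene IDs.

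Members, gene lists and markers were chosen with earlier results of these data known. Named genes were the 12 higher and 12 lower by the smaller of the log2 ratios of both libraries when of one sign, with at least 20 CPM in both and without Ucp1 and mitochondrial genes, then the 4 highest and 4 lowest of each library, and extreme or defining members of the lists. The rule also chose genes that are not reported here. Alternatives were the tie order, low group, depth strata, UMI, mitochondrial and level limits, doublets, adipocyte rule, per-nucleus means, pseudocount and centring.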

Additional observations from a re-analysis of the deposited data

Results flagged for a closer look

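Ppa1, inorganic pyrophosphatase 1, was the 1 gene among 5647 compared in both iBAT libraries that passed 1.5-fold in opposite directions. It was chosen after its values were seen, and the difference between conditions was not tested, with 1 library each. At room temperature Ppa1 measured 179 CPM in the high, 140.2 in the upper middle, 119 in the lower middle and 105 in the low group, a log2 ratio of 0.77 (0.67 to 0.88). After cold it measured 42.7, 42.7, 49.1 and 80.0 CPM, a log2 ratio of -0.89 (-1.03 to -0.78). Without the nuclei holding 3 or more UMIs of the 8 white-adipocyte genes the log2 ratios were 0.79 and -0.74.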

How the results depend on the processing

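No paired analysis was possible because each condition is 1 library. The tie order, depth strata, 3000 UMIs, doublet removal, a 2% mitochondrial limit, the stricter adipocyte rule, centring and removal of muscle-gene nuclei left all 4 gene counts within 1.5 times of those reported. The tie order still moved values at room temperature: 24 of 32 named log2 ratios left their counting intervals, 2 of 31, Hsp90ab1 (0.41) and Bsg (0.49), fell under 1.5-fold, and 4 of 19 list medians changed sign, the fourth being lipolysis (-0.03). With all nuclei of 0 Ucp1 UMIs as the low group, the cold counts were 672 higher and 1014 lower of 6534 genes compared, from 229 low nuclei. With a pseudocount of 10 CPM, 130 genes were lower at room temperature and 1 was higher after cold. A minimum of 50 CPM left 78 lower at room temperature, and 1 higher and 32 lower after cold. It left 3681 and 3679 genes compared, in place of 6226 and 6200. With no minimum level there were 193 higher and 1479 lower at room temperature, and 24 and 1302 after cold. Per-nucleus means gave 5 higher after cold. Chosen after the data were seen, without white-gene nuclei 1 gene was higher and 34 were lower after cold, and with groups ranked on 50% of the UMIs 46 were higher and 126 lower at room temperature and 1 higher after cold. Ttn in the cold changed sign to 0.0799 without 11 muscle-gene nuclei of the low group, also chosen after the data were seen. All 32 named log2 ratios at room temperature and the 31 others in the cold kept their sign under each alternative, as did Ttn under the rest. The level limits changed only which genes were counted, so they could not move these ratios. The tie order left the cold groups unchanged, so it was no check of the cold counts or ratios. Depth limits the room-temperature low group: 0 Ucp1 UMIs at a median of 3706 UMIs does not show absence of Ucp1 RNA.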

Other observations

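Ribosomal protein genes and RNAs retained in the nucleus lay on opposite sides of 0 at room temperature. Of 81 cytosolic ribosomal protein genes 17 reached 20 CPM at room temperature, of which 3 were past 1.5-fold higher in the high group, 16 were above 0 and the median log2 ratio was 0.48, against 1.33% of all genes past the fold, 42.0% above 0 and a median of -0.04. Rpl19 was highest at 0.83. After cold 50 were compared, none passed the fold, 43 were above 0 and the median was 0.10. The retained RNAs had 1 of 7 above 0 and a median of -0.28 at room temperature, and a median of -0.06 after cold. Neat1, the scaffold of paraspeckles, was the exception at 0.41 and 0.07. With the shallower nuclei of 0 Ucp1 UMIs as the room-temperature low group, the 2 medians were 0.12 and -0.12.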
